A study of Mus musculus with 2 samples.

Results

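The 39 Hox genes of the mouse were followed through the cells of the knee joint, in 2 droplet single-cell RNA libraries. Members were all features named Hoxa, Hoxb, Hoxc or Hoxd followed by digits only, which were 39 of 32286 features, 11 of the HoxA, 10 of the HoxB, 9 of the HoxC and 9 of the HoxD cluster. Both libraries held sorted CD45-Ter119-CD31-DAPI-tdTomato+ cells of knee joint cartilage from Procr-CreER;tdTomato mice, in which tamoxifen lets a Cre recombinase made by cells with an active Procr locus switch on a lasting red reporter. All mice received tamoxifen at 4 weeks of age. The pulse library was taken 2 days later and the trace library 4 weeks later, so trace mice were also older. Each library pooled 3 mice and stands alone for its time point. Spread between animals is therefore not known, and no difference between groups was tested. Per the labels' protocols the digest also took in periosteum.

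Hox genes encode homeodomain transcription factors that give cells their position along the body axis and along the limb. They lie in clusters named A to D, in which genes of low paralog number act nearer the head and genes of high number nearer the tail, and copies of 1 number in different clusters are paralogs. In the limb bud the HoxA and HoxD clusters pattern the segments from shoulder or hip to the digits, with paralog groups 9 and 10 tied to the upper segment, 11 to the middle segment and 13 to the hand and foot. HoxC genes of groups 8 to 11 mark the hind part of the trunk and the hindlimb, and adult connective tissue cells and blood vessels keep parts of such codes. In blood, Hoxa9 is a known gene of stem and progenitor cells.

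In GENCODE M21 on GRCm38 the HoxD cluster spans chr2:74668310-74765142, HoxA chr6:52155590-52260880, HoxB chr11:96194316-96368256 and HoxC chr15:102921103-103036852. RefSeq promoter entries on build GRCm38.p6 were matched for 22 of the 39 members. Windows of 200 bases that start 250 bases before the transcript start are shown for Hoxd9 and Hoxd10, which surface and deeper cells used differently, for their nearly silent neighbour Hoxd11 (the first of its 2 starts), and for Hoxb8, which was read in endothelial but not in surface cells. CG dinucleotides are in capitals. The windows are chr2:74697513-74697712, chr2:74691641-74691840, chr2:74679308-74679507 and chr11:96281655-96281854, all on the plus strand and written 5′ to 3′.
Hoxd9: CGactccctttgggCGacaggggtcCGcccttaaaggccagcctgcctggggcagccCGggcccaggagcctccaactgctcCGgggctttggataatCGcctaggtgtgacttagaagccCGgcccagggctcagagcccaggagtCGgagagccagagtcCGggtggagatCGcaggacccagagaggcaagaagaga
Hoxd10: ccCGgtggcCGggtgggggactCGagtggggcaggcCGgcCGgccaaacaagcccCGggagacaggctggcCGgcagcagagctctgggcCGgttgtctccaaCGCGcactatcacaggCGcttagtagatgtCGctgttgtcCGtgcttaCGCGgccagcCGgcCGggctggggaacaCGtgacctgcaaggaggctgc
Hoxd11: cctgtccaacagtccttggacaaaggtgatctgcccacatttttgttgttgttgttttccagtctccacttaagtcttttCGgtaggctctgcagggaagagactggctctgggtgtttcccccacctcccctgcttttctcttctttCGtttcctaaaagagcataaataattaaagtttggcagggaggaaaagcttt
Hoxb8: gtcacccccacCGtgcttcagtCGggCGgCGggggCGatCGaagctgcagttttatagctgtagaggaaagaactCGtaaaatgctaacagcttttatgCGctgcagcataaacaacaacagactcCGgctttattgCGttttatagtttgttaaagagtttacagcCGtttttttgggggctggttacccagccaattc
Hoxd9 held 10 CG dinucleotides, Hoxd10 18, this Hoxd11 window 2 and Hoxb8 11, beside a median of 11 over the 24 Hox windows and 4 over all 32851 windows of the same length. The other Hoxd11 start also had 18, so the count differed between starts of 1 gene. The letters TATAAA, read on both strands, occurred in 3 of 24 Hox windows, with 2 matches in Hoxb8, and in 9.14% of all windows. TGATTNAT, letters that Hox and Pbx proteins are known to bind together, occurred in 2 of 24, at Hoxa2 and at the second Hoxd11 start, and in 2.34% of all. TTTATGG occurred in 0 of 24 Hox windows and 1.99% of all, and no Hox window held more than 1 kind of match. These are letter matches and do not show a bound site.

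Cells with 500 or more detected genes and at most 10% mitochondrial UMIs (unique molecular identifiers, each 1 captured RNA molecule) were kept, 6533 in pulse and 9247 in trace, with medians of 2837 and 3645 UMIs. Cell types were set by sums of marker UMIs, with no Hox gene among them. Surface-like chondrocytes had Acan, Sox9, Chad and Cilp2 together with Prg4, Cilp and Ecrg4. Deeper-zone-like chondrocytes had Matn1, Matn3, Col9a1 and Epyc. Cells past both chondrocyte gates were kept as a class of their own, called both zones. Connective cells were gated on Npy and Angptl7, on the lining fibroblast genes Clic5 and Col22a1, or on the loose connective tissue genes Clec3b, Pi16, Dpp4, Mfap5 and Cd248. Osteoblast-like, mural-like (the contractile cells around vessels), endothelial-like and blood cells had gates too, and gates placed 5337 pulse cells (81.7%) and 7143 trace cells (77.2%). Surface cells numbered 4001 in pulse and 4276 in trace and deeper-zone cells 564 and 52. Lining cells numbered 218 and 696, Npy/Angptl7 cells 240 and 290, loose connective cells 104 and 500, endothelial cells 57 and 288. Mural cells numbered 25 and 246, osteoblasts 30 and 127 and blood cells 6 and 583. Comparisons were made where both sides had 50 or more cells.

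The gates separated their own markers. Prg4, the surface lubricant gene, stood at 8645 UMIs per 1000000 (CPM) in pulse surface and 33.1 CPM in pulse deeper-zone cells, and Col9a1 at 47.3 and 3892 CPM. The sort was against CD31 and CD45, yet endothelial cells carried Pecam1, the CD31 gene, at 1041 and 1118 CPM, and trace blood cells carried Ptprc, the CD45 gene, at 652 CPM. In surface cells, which by their definition failed every other gate, the median sum over every other cell type's gate was 0 UMIs. Of surface cells, 14.8% in either library lay under double the gate floor. The share under double the floor was 54.1% of pulse and 34.9% of trace lining cells. Libraries shared 16 barcodes. Surface cells of pulse had Xist at 0.154 CPM and Ddx3y at 204 CPM and those of trace 366 and 0.245 CPM, so that sex, age and time after tamoxifen went together between libraries and cannot be told apart. Transcripts tied to ribosomal RNA made up 0.961% of pulse and 8.89% of trace UMIs.

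A UMI was found for 35 of the 39 Hox genes, and Hoxb1, Hoxb13, Hoxc12 and Hoxd12 had 0 in every kept cell. There were 6419 Hox UMIs in pulse and 10252 in trace. Of the members, 24 had 100 or more UMIs over gated cells or reached 5 CPM with 10 UMIs in some cell type, 7 each in HoxA, HoxB and HoxC and 3 in HoxD (Hoxd8, Hoxd9 and Hoxd10). The other 15 had at most 116 UMIs over all kept cells. Levels are UMIs of 1 gene per 1000000 UMIs of the summed cells. The kit counts transcript ends, so no length scaling was applied, and ranges in brackets are exact 95% intervals that cover counting error only.

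**Figure D1:**
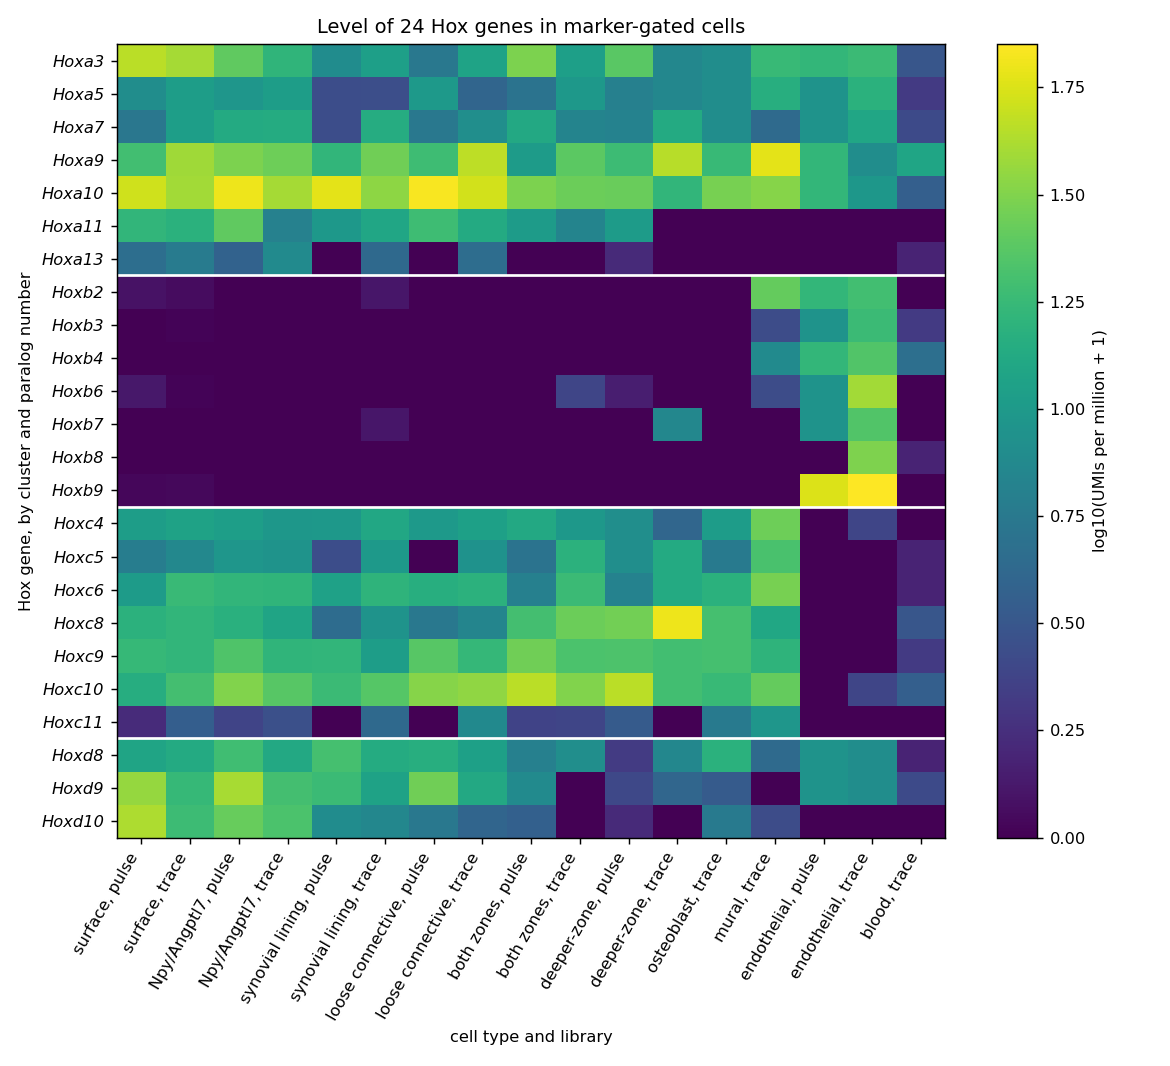
Heat map of the level of the 24 Hox genes (rows, by cluster and paralog number) in each cell type and library with 50 or more cells (columns), as log10(UMIs per 1000000 + 1). HoxB rows are dark outside endothelial and mural cells, where Hoxb9 reached 70.0 CPM in trace endothelial cells, and Hoxd10 is bright in both surface columns (41.3 and 17.6 CPM) and dark in the deeper-zone ones.

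Surface chondrocytes used 3 of the 4 clusters. In pulse, HoxA held 47.9% of their 4020 Hox UMIs (46.3 to 49.4), HoxC 22.3%, HoxD 29.6% (28.2 to 31.1) and HoxB 0.199%. In trace, HoxA held 53.5% of 6016 UMIs, HoxC 29.4%, HoxD 17.0% (16.0 to 17.9) and HoxB 0.116%. Paralog groups 9 and 10 held most UMIs in pulse (56.8%, 55.3 to 58.4) and a smaller part in trace (49.1%). Groups 11 to 13 held 6.84% and 7.51%, groups 5 to 8 16.9% and 24.4%, and groups 1 to 4 19.4% and 19.0%. All Hox genes together came to 309 CPM (pulse) and 294 CPM (trace).

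Within HoxA, Hoxa10, an upper-leg paralog, was the highest member of pulse surface cells at 51.3 CPM (47.4 to 55.3), with 38.5 CPM in trace. Hoxa3, a gene known from the neck and throat region, came next at 44.8 CPM (41.2 to 48.6) in pulse and 38.7 CPM in trace, far above its cluster neighbours Hoxa2 (1.31 and 1.91 CPM) and Hoxa4 (0.693 and 0.881 CPM). Annotated Hoxa3 spans 44.3 kb and overlaps Hoxa4, Hoxa5 and Hoxa6 on the same strand and Hoxaas2 and Hoxaas3 on the other, so its UMIs may include theirs. Hoxa11, the middle-segment paralog, stood at 15.5 CPM (pulse) and 14.2 CPM (trace). Hoxa13, the hand and foot paralog, stood at 3.69 CPM (2.72 to 4.90) and 4.89 CPM (3.98 to 5.95). Hoxa11 was thus above Hoxa13 in each library beyond counting error, and below Hoxa10.

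Within HoxD only 3 neighbours had more than 2 CPM in surface cells. Hoxd8 stood at 11 CPM (pulse) and 12.5 CPM (trace), Hoxd9 at 34.9 and 16.3 CPM and Hoxd10 at 41.3 and 17.6 CPM. The level dropped at the next gene: Hoxd11 had 12 UMIs (0.924 CPM) in pulse and 3 UMIs in trace, Hoxd12 had 0, and Hoxd13 had 3 and 1. On the other side Hoxd3 stood at 1.92 and 1.52 CPM, Hoxd4 at 1.31 and 1.81 CPM, and Hoxd1 had 0 UMIs. Pulse surface cells had Hoxd10 above Hoxd9 with intervals of 37.9 to 45.0 and 31.8 to 38.3 CPM that just overlap.

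HoxC levels of surface cells were more even. In pulse they ran from Hoxc5 at 5.08 CPM and Hoxc6 at 9.31 CPM over Hoxc4 at 9.70, Hoxc10 at 13.2 and Hoxc8 at 14.5 CPM to Hoxc9 at 16.5 CPM. In trace Hoxc10 was highest at 18.8 CPM (17.0 to 20.8), with Hoxc6 at 17.0 CPM (15.2 to 18.9) and Hoxc8 and Hoxc9 both at 15.5 CPM, neighbours whose intervals overlap. Hoxc11, the last HoxC gene with a clear signal, stood at 0.693 and 2.59 CPM, and Hoxc13 had 1 and 4 UMIs. Annotated Hoxc5 spans Hoxc6, Hoxc8 and Hoxc9 and overlaps part of Hoxc10, all on the same strand, so UMIs could be split among them.

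**Figure D2:**
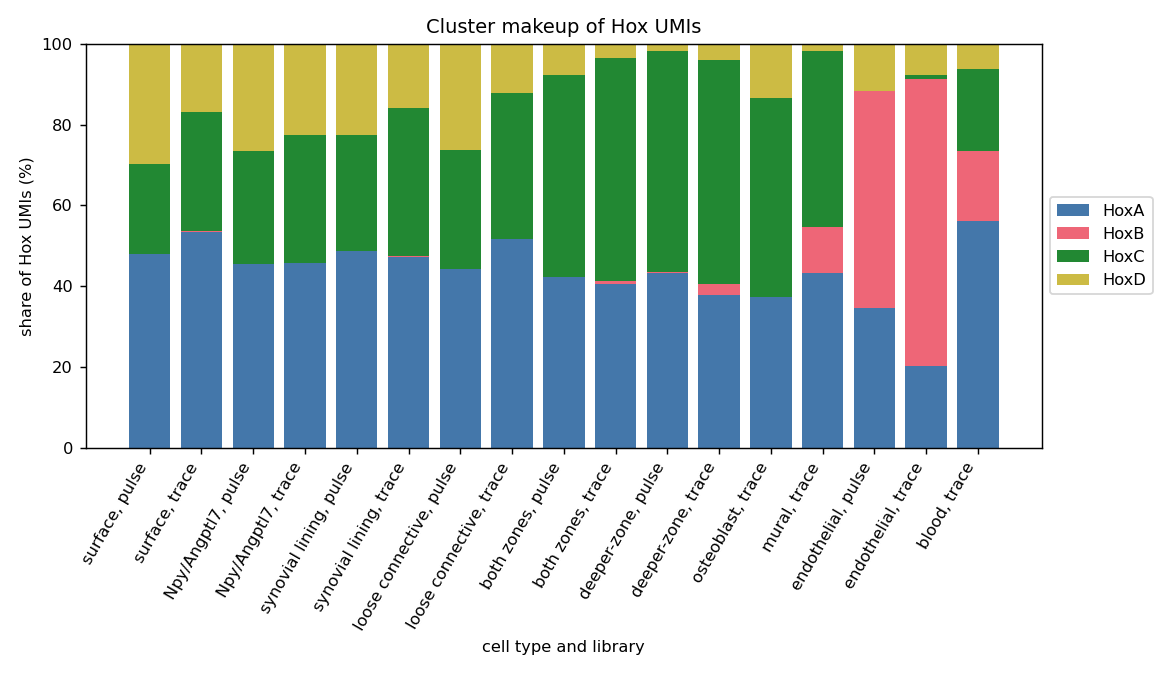
Stacked bars of the share of Hox UMIs (percent) held by each cluster in each cell type and library with 50 or more cells. HoxD held 29.6% in pulse surface cells and 1.76% in pulse deeper-zone cells, and HoxB held 71.2% in trace endothelial cells.

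Deeper-zone chondrocytes kept the HoxA and HoxC part of this code and lacked nearly all of the HoxD part. In pulse, HoxD came to 91.7 CPM (86.5 to 97.0) in surface cells and 3.71 CPM (2.16 to 5.93) in deeper-zone cells, 24.7-fold higher in surface cells (15.4 to 42.6), and HoxD held 1.76% of the 964 Hox UMIs of deeper-zone cells. HoxC went the other way, with 69.0 CPM in surface and 115 CPM in deeper-zone cells, 1.67-fold higher in the latter (1.49 to 1.86), where it held 54.8% of Hox UMIs. HoxA was 1.63-fold higher in surface cells (1.46 to 1.82).

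By gene, Hoxd10 had 537 UMIs (41.3 CPM) in the 4001 pulse surface cells and 3 UMIs (0.654 CPM) in the 564 deeper-zone cells, a ratio of 63.2 (21.5 to 307). Hoxd9 stood at 34.9 CPM against 1.53 CPM from 7 UMIs, 22.9-fold higher in surface cells (11 to 57.3), and Hoxd8 at 11 against 1.09 CPM, 10.1-fold higher (4.23 to 31.6). All 3 HoxD genes were thus separated far beyond counting error in pulse. A Hoxd10 UMI was seen in 9.35% of pulse surface cells (8.46 to 10.3) and in 0.532% of deeper-zone cells (0.110 to 1.55), although the median depth was 2955 UMIs in the former and 7695 in the latter. Thinned to 2000 UMIs each, the shares were 6.23% of 3208 and 0.185% of 541 cells.

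Hoxc10, a hindlimb paralog, was the highest Hox gene of pulse deeper-zone cells at 44.5 CPM (38.6 to 51.0), 3.36-fold above the 13.2 CPM of surface cells (2.73 to 4.14). Hoxc8 stood at 27.7 against 14.5 CPM, 1.91-fold higher in deeper-zone cells (1.52 to 2.41). Hoxc9 was close in both, at 20.5 and 16.5 CPM, with a ratio of 1.24 (0.966 to 1.59). Hoxa10 was 1.98-fold higher in surface cells (1.62 to 2.42) and Hoxa3 likewise 1.98-fold (1.60 to 2.46), while Hoxa9 stood at 18.5 and 17.4 CPM. Counting 2-fold differences among genes with 5 CPM and 10 UMIs on either side, 3 of 15 Hox genes were higher and 1 lower in surface cells, beside 14.8% and 21.8% of all 11335 features that passed. The 3 were Hoxd8, Hoxd9 and Hoxd10, which reached that level only in surface cells, so the filter took them in where they are high. The median log2 ratio of the Hox genes was 0.43 and that of all features -0.12. After centring on that median the Hox split was 5 higher and 1 lower. The shares of all features after centring are not given here, so this split has no background beside it.

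The trace library held only 52 deeper-zone cells, so its floor of 3 UMIs equals 9.34 CPM. Hoxd10 had 0 UMIs in them against 17.6 CPM in surface cells, at least 1.89-fold lower, and Hoxd9 had 1 UMI against 16.3 CPM, a ratio of 5.23 (0.933 to 207). Cells past both chondrocyte gates (92 and 85) were intermediate in pulse, with Hoxd9 at 6.75 CPM and Hoxd10 at 2.70 CPM from 2 UMIs, 15.3-fold under surface cells (4.22 to 127). In trace they had 0 UMIs of either gene, at least 3.74-fold and 4.04-fold below surface cells. Joined with the deeper-zone cells, these 137 trace cells had Hoxd10 at least 5.93-fold lower than surface cells, while Hoxd8 stood at 6.93 CPM, a ratio of 1.81 (0.864 to 4.54) that is short of 2-fold. Hoxc8 was also higher in deeper-zone cells in trace, at 62.3 CPM from 20 UMIs against 15.5 CPM, 4.01-fold (2.42 to 6.31), whereas Hoxc10 stood at 18.7 and 18.8 CPM. In that comparison 5 of 15 Hox genes were 2-fold higher and 1 lower in surface cells, beside 17.7% and 9.02% of all features, with a Hox median of 0.61 and 0.12 over all. Of these 5, Hoxa3, Hoxc4, Hoxd8 and Hoxd9 rested on 1 or 2 deeper-zone UMIs and Hoxa10 on 5. Only Hoxa9 and Hoxc8 passed the filter in trace deeper-zone cells. All 5 thus passed it through surface cells, where they are high, and their count was largely set by the filter.

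**Figure D3:**
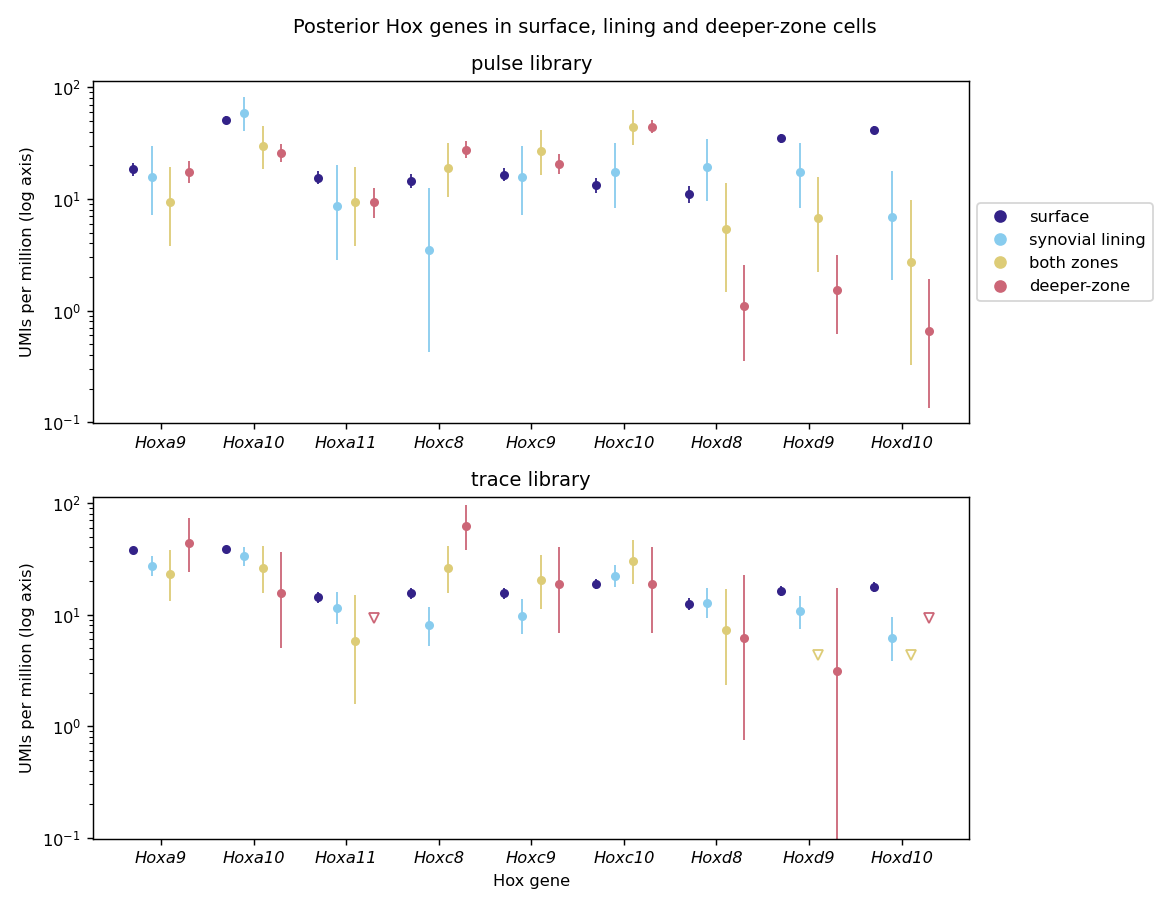
Level (UMIs per 1000000, log axis) of 9 Hox genes in surface, lining, both-zones and deeper-zone cells of each library, with exact 95% Poisson intervals; open triangles are genes with 0 UMIs, drawn at the level of 3 UMIs. In pulse Hoxd8, Hoxd9 and Hoxd10 step down from surface (41.3 CPM for Hoxd10) to deeper-zone cells (0.654 CPM), while Hoxc10 steps up from 13.2 to 44.5 CPM.

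The connective cells next to the surface shared its clusters and differed in single genes. Npy/Angptl7 cells were allowed to pass the surface gate too, and their median surface marker sums lay past its floor, so the classes overlap. HoxD came to 95.5 CPM (pulse) and 59.1 CPM (trace). None of 14 Hox genes in pulse was 2-fold higher in surface than in Npy/Angptl7 cells and Hoxc10 was lower (13.2 against 30.9 CPM, 2.33-fold, 1.43 to 3.65), beside 11.4% and 9.51% of all features. In trace Hoxa3 (38.7 against 15.2 CPM) and Hoxa11 (14.2 against 5.48 CPM) were higher in surface cells and none of the 16 was lower, beside 7.63% and 8.96%. Hoxa11 passed the filter only through surface cells.

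Lining fibroblasts, the cells that face the joint space and also make Prg4, had Hoxa10 at 59.1 CPM (pulse) and 33.2 CPM (trace), close to surface cells. They had much less Hoxa3, 6.96 CPM from 4 UMIs in pulse and 10.1 CPM in trace, so that surface cells were 6.44-fold (2.50 to 23.7) and 3.84-fold (2.73 to 5.59) higher. Hoxd10 was at 6.96 and 6.22 CPM in lining cells, with surface cells 5.94-fold (2.31 to 21.9) and 2.83-fold (1.82 to 4.63) higher. Hoxa5 was at 1.74 CPM from 1 UMI and 1.78 CPM from 6 UMIs, with surface cells 5.5-fold higher in trace (2.48 to 15.2). Hoxd8 differed little, at 19.1 and 12.7 CPM in lining and 11 and 12.5 CPM in surface cells. In pulse 6 of 14 Hox genes were 2-fold higher in surface cells and 0 lower, beside 21.9% and 17.5% of all features, and in trace 3 of 15 and 0, beside 17.5% and 17.1%. Hox medians were 0.54 and 0.30 in log2, with 0.05 and -0.02 over all features. In pulse only Hoxa10, Hoxc10, Hoxd8 and Hoxd9 reached the level filter of 5 CPM and 10 UMIs in lining cells. The other genes passed it through surface cells, so the pulse count and median were largely set by the filter. In trace Hoxa5 passed it only through surface cells.

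Loose connective tissue cells had the highest Hoxa10 level of any type with 50 or more cells in trace, 51.7 CPM, and Hoxa9 at 45.7 CPM. Surface cells of trace were higher in Hoxa3 (3.58-fold, 2.25 to 6.07), Hoxa5 (3.25-fold, 1.37 to 10.1), Hoxc8 (2.58-fold, 1.38 to 5.43) and Hoxd10 (5.86-fold, 2.49 to 18.2, 3.01 CPM in loose connective cells). Hoxc11 was 2.55-fold higher in loose connective cells, 6.61 against 2.59 CPM (1.2 to 4.94). That made 4 of 16 higher and 1 lower, beside 15.8% and 19% of all features. Hoxa5 and Hoxd10 passed the level filter only through surface cells, and Hoxc11 only through loose connective cells. The 104 pulse loose connective cells had 1 UMI each of Hoxa3 and Hoxd10, with ratios of 9.95 (1.78 to 394) and 9.18 (1.64 to 363). Hoxc8, also at 1 UMI, had a ratio of 3.21 (0.57 to 128), and Hoxc10 was at 31.5 against 13.2 CPM, 2.38-fold higher in loose connective cells (0.943 to 5.01).

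Osteoblasts of trace (127 cells, 75 Hox UMIs) had 49.3% of their Hox UMIs in HoxC, 37.3% in HoxA and 13.3% in HoxD. Hoxa10 stood at 28.6 CPM, Hoxc8 and Hoxc9 at 19.0 CPM each, Hoxd8 at 14.3 CPM, and Hoxd10 and Hoxd9 at 4.76 and 2.38 CPM from 2 and 1 UMIs. Surface cells were 2-fold higher in 4 of 15 Hox genes and lower in 0, beside 23.3% and 12.7% of all features. Only Hoxa10 reached the level filter in osteoblasts. The other genes passed it through surface cells, so this count was largely set by the filter. Hoxa11 had 0 UMIs, which a level of 7.14 CPM would still allow.

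Endothelial cells used HoxB, the cluster nearly unread in surface cells. Trace endothelial cells (288) had 222 Hox UMIs, of which 158 (71.2%, 64.7 to 77.0) came from HoxB. HoxB came to 226 CPM (192 to 264) in them and to 0.342 CPM in trace surface cells, 660-fold higher in endothelial cells (313 to 1667). In pulse the 57 endothelial cells had 14 HoxB UMIs of 26 (53.8%, 33.4 to 73.4), or 111 CPM (60.8 to 187), against 0.616 CPM in surface cells.

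Hoxb9, the HoxB paralog of Hoxa9 and Hoxd9, led with 49 UMIs in trace (70.0 CPM, 51.8 to 92.6) and 7 UMIs in pulse (55.6 CPM, 22.4 to 115). Hoxb6 stood at 38.6 CPM in trace, Hoxb8 at 30.0, Hoxb4 and Hoxb7 at 21.4 each, Hoxb2 at 18.6, Hoxb3 at 17.2 and Hoxb5 at 8.58 CPM. Trace surface cells had 0 UMIs of Hoxb4, Hoxb7 and Hoxb8, so endothelial cells were at least 146-fold, 146-fold and 205-fold higher, with Hoxb8, whose promoter window is shown above, at 21 UMIs. With 2 UMIs of Hoxb9 in surface cells the ratio was 716 (188 to 6077). These HoxB genes were thus all read in endothelial cells, which a sort against CD31 would leave out. They were not limited to them, since Hoxb2 was also read in trace mural cells. All HoxB genes together came to 35.1 CPM in trace mural and 5.85 CPM in trace blood cells, against 226 CPM in trace endothelial cells.

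A Hoxb9 UMI was seen in 12.2% of trace endothelial cells (8.61 to 16.5) at a median of 2055 UMIs and in 0.0468% of surface cells at 4314. In blood it was seen in 0 of 583 cells, which allows up to 0.515%, and in lining cells in 0 of 696, up to 0.431%. At 2000 UMIs each the endothelial and surface shares were 8.72% and 0.0260%.

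HoxC genes and the genes Hoxa11 and Hoxd10 had few or no UMIs in endothelial cells. In trace Hoxa11, Hoxc5, Hoxc6, Hoxc8, Hoxc9 and Hoxd10 had 0 UMIs, with a floor of 4.29 CPM, and surface cells were at least 4.11-fold higher in Hoxd10, 3.96-fold in Hoxc6, 3.62-fold in Hoxc8 and Hoxc9 and 3.32-fold in Hoxa11. HoxC as a whole had 2 UMIs in trace and 0 in pulse. Hoxa10 stood at 8.58 against 38.5 CPM, 4.48-fold higher in surface cells (2.05 to 12.3), and Hoxa9 at 7.15 against 37.7 CPM, 5.28-fold (2.25 to 16.3). Hoxa5 and Hoxa7 were close in both, at 14.3 and 11.4 CPM in endothelial and 9.78 and 9.88 CPM in surface cells. Of 22 Hox genes 11 were 2-fold higher and 7 lower in surface cells, beside 20.7% and 20.8% of all features, with a Hox median of 0.99 and -0.07 over all. Those 7 were the HoxB genes past the level filter, and they passed it through the endothelial cells. Of the 11, only Hoxa3 reached it in endothelial cells, and the others passed it through surface cells.

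Mural cells of trace (246) had a code of their own, with 43.8% of 185 Hox UMIs in HoxC (135 CPM), 43.2% in HoxA (134 CPM), 11.4% in HoxB (35.1 CPM) and 1.62% in HoxD. Hoxa9 was their highest member at 58.5 CPM, against 7.15 CPM in endothelial and 37.7 CPM in surface cells. Hoxb2 stood at 25.1 CPM from 15 UMIs, near the endothelial 18.6 CPM, while Hoxb7, Hoxb8 and Hoxb9 had 0 UMIs. Hoxc6 stood at 28.4 CPM, Hoxc4 at 26.7, Hoxc10 at 25.1 and Hoxc5 at 20.1 CPM. Hoxa11 and Hoxd9 had 0 UMIs, at least 2.84-fold and 3.25-fold lower than surface cells, and Hoxd10 had 1 UMI, a ratio of 10.5 (1.88 to 417). Against surface cells 6 of 16 Hox genes were lower in mural cells by 2-fold and 3 higher (Hoxb2, Hoxc4 and Hoxc5), beside 18.2% and 20.3% of all features, with medians of 0.16 and -0.07. Hoxa5, Hoxa7, Hoxa11, Hoxc8, Hoxc9, Hoxd8, Hoxd9 and Hoxd10 passed the level filter only through surface cells, and Hoxb2 only through mural cells. The counts and the Hox median were thus partly set by the filter.

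**Figure D4:**
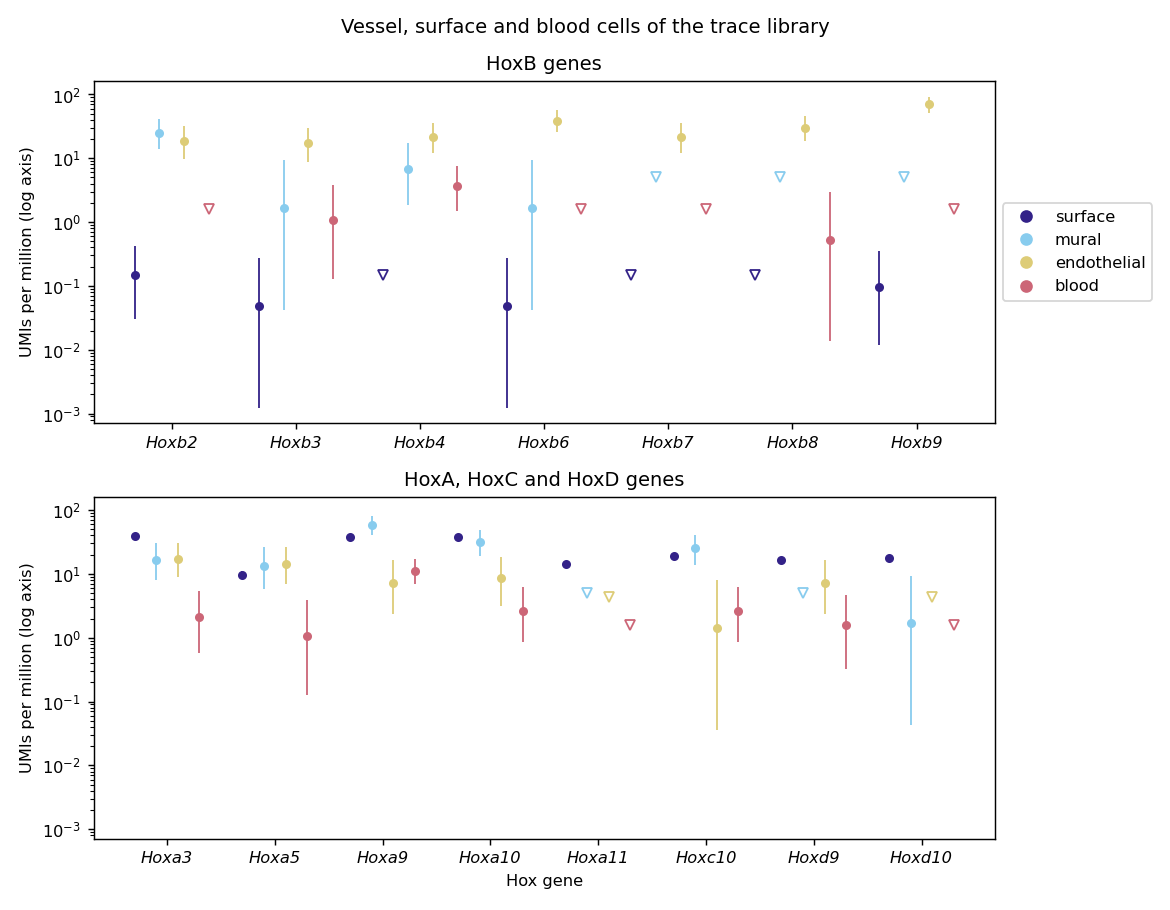
Level (UMIs per 1000000, log axis) of HoxB genes (top) and of HoxA, HoxC and HoxD genes (bottom) in surface, mural, endothelial and blood cells of the trace library, with exact 95% Poisson intervals; open triangles are genes with 0 UMIs, drawn at the level of 3 UMIs. Endothelial cells lie between 17.2 CPM (Hoxb3) and 70.0 CPM (Hoxb9) in the top panel, where surface cells lie under 0.2 CPM, and mural cells reach that range only for Hoxb2 (25.1 CPM).

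Blood cells, the contrast to the joint cells, had few Hox UMIs. All Hox genes came to 34.0 CPM (26.2 to 43.5) in the 583 trace blood cells against 294 CPM in surface cells, and a Hox UMI was seen in 6.52% of blood cells (4.65 to 8.84) at a median of 2127 UMIs. At 2000 UMIs each it was seen in 3.86% of blood (2.01 to 6.64) and 41.0% of surface cells (39.4 to 42.5). All 15 Hox genes past the level filter were 2-fold higher in surface cells and 0 lower, beside 20.4% and 32.8% of all features, with a Hox median log2 ratio of 3.35 and -0.36 over all. Hoxa9 alone reached the level filter in blood, so the other 14 passed it through surface cells, where they are high, and the count and median were largely set by the filter. Trace blood cells also carried the cartilage genes Prg4 at 631 CPM and Col2a1 at 107 CPM, against 26812 and 2777 CPM in trace surface cells. What part of the Hox UMIs of blood cells came from free RNA was not tested. The 6 pulse blood cells were too few to compare.

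Hoxa9 was the leading Hox gene of blood, at 11.2 CPM from 21 UMIs, and 15 of those lay in the 43 cells gated as blood progenitors. There it stood at 37.8 CPM (21.1 to 62.3), seen in 9 of the 43 cells, against 37.7 CPM in surface cells and 0 UMIs in 246 neutrophils. Hoxa10, by contrast, had 1 UMI in progenitors and Hoxd10 had 0. The most Hox genes seen in 1 blood progenitor was 7. Neutrophils had 13 Hox UMIs in all, 8 of them HoxC, or 19.3 CPM (10.3 to 33.0). B lineage cells (209) had 18 Hox UMIs, 5 of Hoxa9 and 4 of Hoxb4.

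Between libraries, surface cells differed in the HoxD genes and in 2 HoxA genes. Hoxd10 was 41.3 CPM (pulse) and 17.6 CPM (trace), 2.35-fold lower in trace (2.05 to 2.69), and Hoxd9 34.9 and 16.3 CPM, 2.15-fold lower (1.86 to 2.48). Their neighbour Hoxd8 stood at 11 and 12.5 CPM, a ratio of 1.14 (0.924 to 1.41), so 2 of the 3 HoxD genes with a clear level differed. Hoxa9 was 18.5 CPM (pulse) and 37.7 CPM (trace), 2.04-fold higher (1.76 to 2.37), and Hoxa7 4.46 and 9.88 CPM, 2.21-fold higher (1.65 to 3.02). Hoxc6 was 1.82-fold higher (1.48 to 2.26), Hoxa10 1.33-fold lower (1.2 to 1.48), and Hoxa11 (15.5 and 14.2 CPM), Hoxc8 and Hoxc9 had intervals of the ratio that include 1.

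These 2 higher and 2 lower genes were among 15, beside 2.3% and 13% of 10081 features. The Hox median was 0.13, while all features had a median of -0.22, so that ratios in surface cells lie on a shifted scale. Centred on that shift the split was 3 higher and 1 lower, with Hoxc6 now past 2-fold and Hoxd9 short of it (-0.88 in log2). The shares of all features after that centring are not given here. As a check within other cells, Hoxd9 was also 2.08-fold lower in trace Npy/Angptl7 cells (39.3 and 18.9 CPM, 1.2 to 3.59), while Hoxd10 stood there at 25.3 and 20.1 CPM. In lining cells Hoxd9 was 17.4 and 10.7 CPM and Hoxd10 6.96 and 6.22 CPM. HoxD as a whole was also lower in trace in Npy/Angptl7 cells (1.62-fold, 1.17 to 2.23). In loose connective cells it came to 72.0 CPM (pulse) and 32.5 CPM (trace), 2.22-fold lower (1.19 to 3.93). The interval of the HoxD ratio included 1 in lining, both-zones, deeper-zone and endothelial cells, and in the last 2 HoxD was not lower in trace. Hoxa9 was higher in trace in deeper-zone cells (17.4 and 43.6 CPM, 2.50-fold, 1.31 to 4.44) and stood at 15.7 and 27.3 CPM in lining but 29.5 and 26.8 CPM in Npy/Angptl7 cells. The part of sex, age or ribosomal RNA transcripts in these differences was not tested.

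**Figure D5:**
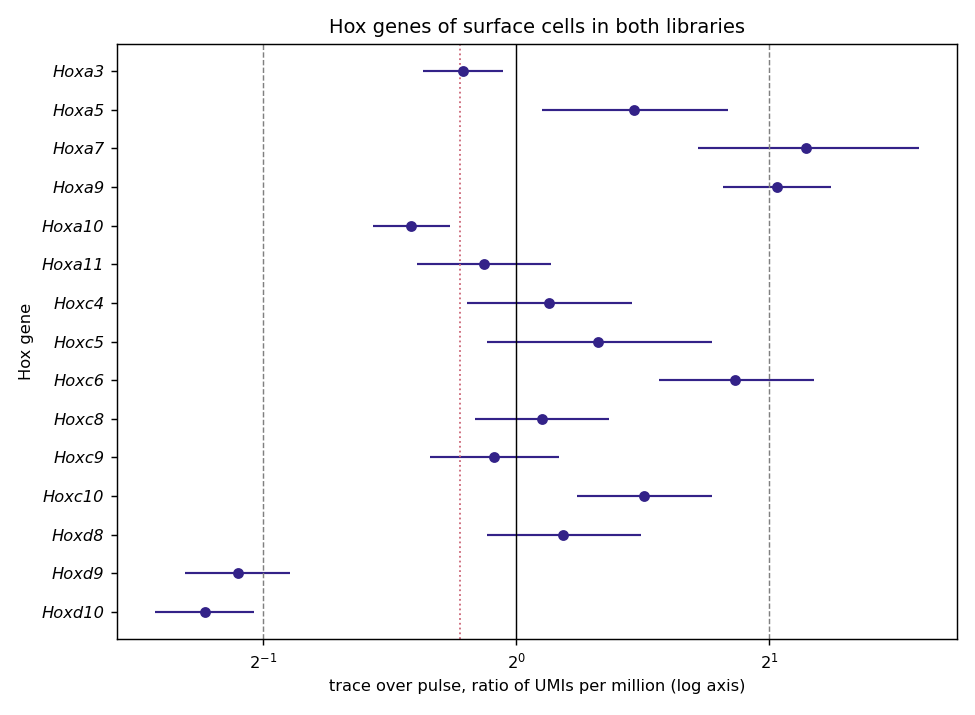
Ratio of the level in trace over pulse surface cells (log axis) for the 15 Hox genes past the level filter, with exact conditional Poisson 95% intervals that cover counting error only; dashed lines mark 2-fold and the dotted line the median of all features. Hoxd9 and Hoxd10 lie lowest and Hoxa7 (2.21) and Hoxa9 (2.04) highest.

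In surface cells the mean number of Hox genes with a UMI came to 0.841 (pulse) and 1.17 (trace), and the most in 1 cell were 7 and 10. Thinned to 2000 UMIs, 42.0% of pulse surface cells and 41.0% of trace surface cells had any Hox UMI, against 34.0% and 35.6% of deeper-zone and 31.9% and 31.3% of lining cells, 38.9% of trace mural and 45.0% of trace endothelial cells. At that depth Hoxd10 was seen in 13% of the 200 pulse surface cells with a Hoxd9 UMI (8.67 to 18.5) and in 5.78% of those without (4.98 to 6.68). In trace the values were 7.63% of 118 (3.55 to 14.0) and 3.11% (2.57 to 3.71), with intervals that just overlap. Hoxa10 with Hoxa9 gave 12.3% (6.69 to 20.1) and 8.12% (7.19 to 9.14) in pulse. In trace this pair gave 10.1% (6.85 to 14.3) and 6.54% (5.75 to 7.40), so the intervals overlap in both libraries. Not every pair went this way. Hoxc10 with Hoxc9 gave 2.94% and 2.38% in pulse and 3.81% and 3.71% in trace. Of different clusters, Hoxd10 with Hoxa10 gave 7.17% and 6.15% in pulse and 5.73% and 3.06% in trace. Hoxd10 with Hoxc10 gave 3.90% and 6.29% in pulse and 2.80% and 3.26% in trace. These shares describe cells of 1 library and carry no test.

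Proteins that work beside Hox genes, and the other position genes of the limb, were read from lists of 9 cofactors, 25 limb position factors and 11 noncoding RNAs of the clusters. Cofactors of the Pbx, Meis and Pknox families bind DNA together with Hox proteins. Of 9, 7 passed the level filter in pulse surface over deeper-zone cells, with 4 higher and 0 lower in surface cells, beside 14.8% and 21.8% of all features. Their median log2 ratio was 1.49, and -0.12 over all. Meis2 stood at 22.0 against 7.85 CPM (2.8-fold, 1.98 to 4.09) and Pknox2 at 22.8 against 5.89 CPM (3.87-fold, 2.61 to 5.97), while Pbx3 (80.6 and 41.9 CPM) and Pknox1 (35.5 and 27.9 CPM) were short of 2-fold. In trace surface over deeper-zone cells 2 of 7 cofactors were higher and 0 lower, beside 17.7% and 9.02% of all features. The median log2 ratio there was 0.19, and 0.12 over all. The 52 trace deeper-zone cells are too few to show whether the shift seen in pulse repeats. In trace over pulse surface cells 1 of 7 cofactors was lower, Pbx3 (80.6 and 40.1 CPM), and 0 higher, beside 13% and 2.3% of all features.

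Of the limb position factors 12 of 25 passed the filter in pulse surface over deeper-zone cells, 6 higher and 1 lower in surface cells, beside 14.8% and 21.8% of all features, with medians of 1.10 and -0.12. Prrx1, a mesenchyme factor of the limb, stood at 272 against 5.45 CPM, 49.9-fold higher (33.8 to 77.3). Pitx1, which sets hindlimb identity, stood at 39.4 CPM (pulse) and 66.5 CPM (trace) surface cells, 16.8 CPM in pulse deeper-zone cells and 87.4 CPM in trace lining cells, with 0 UMIs in endothelial cells of either library. Tbx4, its hindlimb partner, stood at 8 and 12.4 CPM in surface cells and had 2 UMIs in pulse deeper-zone cells. Tbx4 thus passed the pulse filter only through surface cells, so the count of limb position factors higher in surface cells was partly set by the filter. Tbx5, the forelimb factor, stood at 0.924 and 1.32 CPM in surface cells and at 12.6 CPM in trace loose connective cells. Shox2 stood at 39.4 and 59.6 CPM in surface cells and 66.1 and 90.3 CPM in deeper-zone cells. Gli3 (106 and 117 CPM in pulse) and Tbx15 (100 and 55.2 CPM) were within 2-fold. In trace surface over deeper-zone cells 4 of 12 limb position factors were higher and 1 lower, beside 17.7% and 9.02% of all features. Medians there were 0.44 and 0.12. In trace over pulse surface cells 0 of 12 were 2-fold apart, with a median of 0.01 and -0.22 over all features.

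Of the 11 noncoding RNAs, 5 passed the filter in pulse surface over deeper-zone cells and 3 were higher and 0 lower in surface cells, beside 14.8% and 21.8% of all features, with medians of 1.23 and -0.12. Hoxd3os1, which runs against Hoxd3, Hoxd4 and Hoxd8, stood at 11.6 against 2.18 CPM (5.33-fold, 2.82 to 11.3), Hoxa11os at 7.62 against 2.40 CPM and Hoxaas2 at 14.3 against 6.10 CPM. Hoxd3os1 and Hoxa11os passed the filter only through surface cells, where they are high, so the count and median were partly set by the filter. Hotairm1 was lower in surface cells at 20.2 against 37.7 CPM, short of 2-fold. In trace surface over deeper-zone cells 1 of 3 noncoding RNAs was higher and 1 lower, beside 17.7% and 9.02% of all features. Medians there were -0.30 and 0.12. With 3 genes past the filter and 52 trace deeper-zone cells, this does not show whether the shift seen in pulse repeats. In trace over pulse surface cells 2 of 5 were lower and 0 higher, beside 13% and 2.3% of all features. They were Hoxaas3 at 17.8 and 4.70 CPM (3.79-fold, 2.97 to 4.85) and Hoxaas2 at 14.3 and 4.60 CPM (3.11-fold, 2.42 to 4.03), and the list's median was -0.69. No source used here says whether the counting used strand. Without it, RNAs from opposite strands of 1 stretch cannot be told apart.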

How the data were processed

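Tissue of 3 pooled mice per library was digested and sorted, and per the labels' protocols the 10x 3′ V2 chemistry was used. The deposited values are unnormalized counts of UMIs for each gene in each barcode, written by Cell Ranger 7.1.0 per the file headers. The submitters' processing notes list Cell Ranger 3.0.1, the build mm10 and DESeq2, Seurat, HTSeq and STAR, with no role for any. No source used here states intron counting or the annotation release. The libraries held 6863 and 10423 barcodes with 23306063 and 40284041 UMIs, and 330 and 1176 barcodes failed the cell filter.

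Gates needed a floor in UMIs and in UMIs per 10000: 20 for neutrophils, 5 for osteoblasts and deeper-zone cells, 3 for the others, and for surface cells 5 UMIs and 10 per 10000 in each of 2 marker sums. Cells past gates of several types stayed ungated, except the both-zones class and Npy/Angptl7 cells, which could also pass the surface gate. Counts were summed per type and library. Intervals were exact 95% (Poisson, Clopper-Pearson, conditional Poisson) and cover counting error only; a gene at 0 was set at 3 UMIs over the group. Scrublet's own threshold marked 0 cells, so doublets were kept, apart from cells past several gates, and leaving out the highest-scoring 5% (327 and 462 cells) was an alternative. Values are printed for members with 100 UMIs over gated cells, or 5 CPM and 10 UMIs in some type, and for up to 5 genes per companion list with the highest level in both chondrocyte types, plus Tbx4, Tbx5, Pitx1 and Shox2. Values of 1 member and 1 cofactor are not reported here. Members, gates and lists were chosen with earlier results of these data known. The ratio step was tested on simulated counts. Software: scanpy 1.11.5, scipy 1.17.1, numpy 2.4.6, pandas 2.3.3 and matplotlib 3.10.9 under Python 3.11.15.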

Additional observations from a re-analysis of the deposited data

Results flagged for a closer look

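Hoxc10 differed between libraries in opposite directions in 2 cell types. In surface cells the trace over pulse ratio was 1.42 (1.18 to 1.71), with 13.2 CPM in pulse and 18.8 CPM in trace. In deeper-zone cells the ratio was 0.420 (0.152 to 0.930), with 44.5 CPM in pulse and 18.7 CPM, from 6 UMIs in 52 cells, in trace. With 1 library per group this difference between cell types was not tested.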

How the results depend on the processing

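Hoxa5 in surface over endothelial cells of trace, within 2-fold, turned from -0.55 to 0.25 in log2 with doubled gate floors; no other ratio checked turned its direction. Without ribosomal RNA transcripts, mitochondrial and ribosomal protein genes in the denominator, HoxD in surface cells came to 99.0 CPM in pulse and 61.3 CPM in trace and HoxB in trace endothelial cells to 279 CPM, since the denominator is smaller. That denominator, and centring on the median of all features, each left 1 Hox gene 2-fold lower in trace surface cells, and centring gave 5 genes higher in pulse surface than deeper-zone cells. The shares of all features under these settings are not given here. The share of surface cells with a Hoxd10 UMI was 6.23% in pulse and 3.24% in trace at 2000 UMIs per cell, and 2.52% and 1.15% where 2 UMIs were asked for. With each cell weighted alike HoxD held 27.0% of Hox UMIs in pulse surface cells and 15.9% in trace. Doubled gate floors, 1000 genes per cell, all deposited barcodes and leaving out the highest doublet scores moved no main value beyond counting error. No paired analysis was possible because each group had 1 library. The trace deeper-zone class of 52 cells and the pulse endothelial class of 57 limit what their zeros show.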

Other observations

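Surface cells were split, after the data were seen, at 10 Col10a1 UMIs per 10000; Col10a1 is a gene of mature cartilage cells. Hoxd10 stood at 33.6 CPM (29.5 to 38.0) in the 2416 pulse cells under that level and 51.4 CPM (45.6 to 57.6) in the 1585 at or above it. In trace it stood at 13.9 CPM (12.1 to 15.9) in 3307 and 28.1 CPM (23.8 to 32.9) in 969 cells. Hoxd9, its neighbour, did not follow, at 36.0 and 33.5 CPM in pulse and 15.9 and 17.5 CPM in trace. Hoxa3 stood at 35.9 and 56.3 CPM in pulse but 37.8 and 41.1 CPM in trace. Hoxc8 likewise stood at 10.8 and 19.2 CPM in pulse but 15.1 and 16.5 CPM in trace. Hoxa10 went the other way in pulse, at 59.1 and 41.1 CPM, and stood at 37.7 and 40.5 CPM in trace. Hoxd10 was lower in trace than in pulse on both sides of the split.

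Among 21 regulators of Hox chromatin, Ezh2, the enzyme of the repressive Polycomb mark, stood at 44.7 CPM in pulse surface and 138 CPM in pulse deeper-zone cells, and Kdm6b, which removes that mark, at 279 and 114 CPM. Kdm6b was 2.31-fold lower in trace than in pulse surface cells (2.19 to 2.43), at 121 CPM. Kdm6a (89.1 and 112 CPM), Suz12 (78.4 and 88.5 CPM) and Kmt2a (132 and 81.1 CPM) were within 2-fold between pulse surface and deeper-zone cells. Of 17 regulators past the level filter 2 were 2-fold higher and 4 lower in surface cells, near the 14.8% and 21.8% of all features.

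Tbx3 and Tbx2, T-box transcription factors named after their values were seen, stood at 252 and 68.5 CPM in trace mural cells and at 3.77 and 0.881 CPM in trace surface cells.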
